A study of Drosophila melanogaster with 24 samples.

Results

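Glutathione transferases and the antioxidant enzymes that work beside them were followed in wing imaginal discs of Drosophila melanogaster during Myc-induced cell competition. The 38 genes are those whose symbol in the platform's probe-to-gene table begins with Gst and a class letter (D, E, O, S, T or Z) or with Prx, together with the measured ones among Sod1, Sod2, Cat, Gclc, Gclm, Trxr1 and Trx-2. They were found among 9011 named genes. They comprise 29 glutathione transferases (10 of the delta class, 11 epsilon, 3 omega, 1 sigma, 3 theta and 1 zeta), both subunits of the enzyme that makes the glutathione precursor (Gclc and Gclm), the superoxide dismutase Sod2 with the catalase Cat, 4 peroxiredoxins (Prx1, Prx3, Prx6a and Prx6c) and the thioredoxin reductase Trxr1. Each was represented by 1 array feature, except Sod2 with 2, and all 38 passed the filter on missing values.

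Glutathione transferases join the small thiol glutathione to reactive and electrophilic compounds, among them insecticides and the products of lipid oxidation. Sod2 turns superoxide into hydrogen peroxide, which Cat and the peroxiredoxins remove, the latter with electrons passed on by thioredoxin. Flies lack a glutathione reductase, so Trxr1 keeps both the thioredoxin and the glutathione pool reduced. Many of these genes are known targets of the transcription factor cnc, the fly counterpart of Nrf2, which Keap1 holds in check.

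Larvae of the third instar carried either tub>dmyc>Gal4, where extra Myc is made under a tubulin promoter that is active in all cells, from a cassette that can be cut out, or the control tub>cd2>Gal4 with cd2 in place of dmyc. Both received a heat shock of 15 min at 37 degrees, which opens the cassette in some cells and so creates clones that meet cells still carrying it, and wing disc RNA of both was hybridised to the same array at 0, 12, 24 or 48 h. There were 24 arrays, 6 per time, of which 3 per time had the dyes exchanged (replicates 1 to 3 held dmyc RNA in Cy5, replicates 4 to 6 in Cy3). The labels give neither the number of larvae per sample nor whether replicates are separate animals, and every p-value below therefore measures only the spread between these samples.

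All values are log2 ratios of dmyc over cd2, centred on each array's median. A positive value likely means more RNA in dmyc discs. The basis for that direction is only which genotype the sample titles name first. The dye-swapped arrays ran the same way as the others, with r of 0.84, 0.655, 0.727 and 0.505 at the 4 times in order. These r are over all features, on deviations of each dye orientation from its own mean over all times. They show that both orientations share a sign, but would be the same with every sign reversed, so they cannot give the direction. Nor do they check that the 0 h arrays have the same direction as the later ones. Every difference from 0 h below rests on that match. Between times the ratios partly opposed each other, with r = -0.388 between the 0 h and 12 h means and -0.298 between the 0 h and 24 h means, and with single arrays of one dye down to -0.747. Over the 38 genes alone these correlations of time means were -0.096 and -0.279. Means of the other pairs of times correlated positively. Over all features r was 0.134 between 0 and 48 h and 0.605 between 12 and 24 h. It was 0.521 between 12 and 48 h and 0.408 between 24 and 48 h. Over the 38 genes r was 0.454, 0.767, 0.608 and 0.58 in the same order. A ratio from whole discs cannot tell fewer cells of a type from less RNA per cell, and it gives no expression level, so the disc identity was not checked on levels. Of 13 wing disc marker genes, 11 gave a ratio, from -0.26 (nub) to 0.29 (vg) at 0 h with a median of -0.08, and from -0.33 (en) to 0.29 (nub) at 12 h with a median of 0.0048. At 0 h 1 of them was called higher and 3 lower, and at 12 h 1 higher and 1 lower.

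A gene was called when its adjusted p (limma, Benjamini-Hochberg over 10661 features) was under 0.05. At 0 h, 7 of the 38 genes were called, 18.4% against 12.1% of all features, with 2 higher and 5 lower in dmyc (3.84% and 8.24% of all features). At 12 h, 9 were called, 23.7% against 8.29%, with 4 higher and 5 lower (5.32% and 2.97% of all features). The 24 h arrays gave 4 calls, 10.5% against 8.14%, with 2 higher and 2 lower (3.75% and 4.39%). The 48 h arrays gave 5 calls, 13.2% against 6.29%, with 1 higher and 4 lower (3.1% and 3.19%). The median ratio of the 38 genes lay between -0.02 and 0.01 at the 4 times. The median size of a ratio, sign ignored, was 0.09, 0.10, 0.08 and 0.07 at 0, 12, 24 and 48 h, beside 0.06, 0.06, 0.06 and 0.05 over all features. In all, 13 genes were called at some time, 1 more (Prx3) only in a comparison with 0 h, and 24 in none.

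Dye-swap pairs are not labelled, so opposite-dye arrays of a time that correlated best were taken as pairs (r between 0.519 and 0.898). That choice favours high r, and all arrays of a time share its signal, so these r cannot establish the pairs. The correlation of 0.443 fitted below comes from the same pairs. If the pairs are right, a fit over 24 arrays treats related arrays as separate and its p-values are on the whole too small. With the pairs as a random block (fitted correlation 0.443), the calls were 3, 1, 2 and 3 at 0, 12, 24 and 48 h, where 4.83%, 1.34%, 1.61% and 1.91% of all features were called. Those 9 calls were Trxr1 (0 and 24 h), GstO3 (0, 12 and 48 h), GstD3 (24 and 48 h), GstD4 (0 h) and GstE11 (48 h). With partners averaged to 12 values, GstO3 at 48 h was the single call at any time (0.544% of all features were called there and none at the other times). In that fit 8, 9, 6 and 7 of the 38 genes had an unadjusted p under 0.05 at 0, 12, 24 and 48 h. Over the 10661 features the numbers were 1724, 1490, 1435 and 1253.

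**Figure D1:**
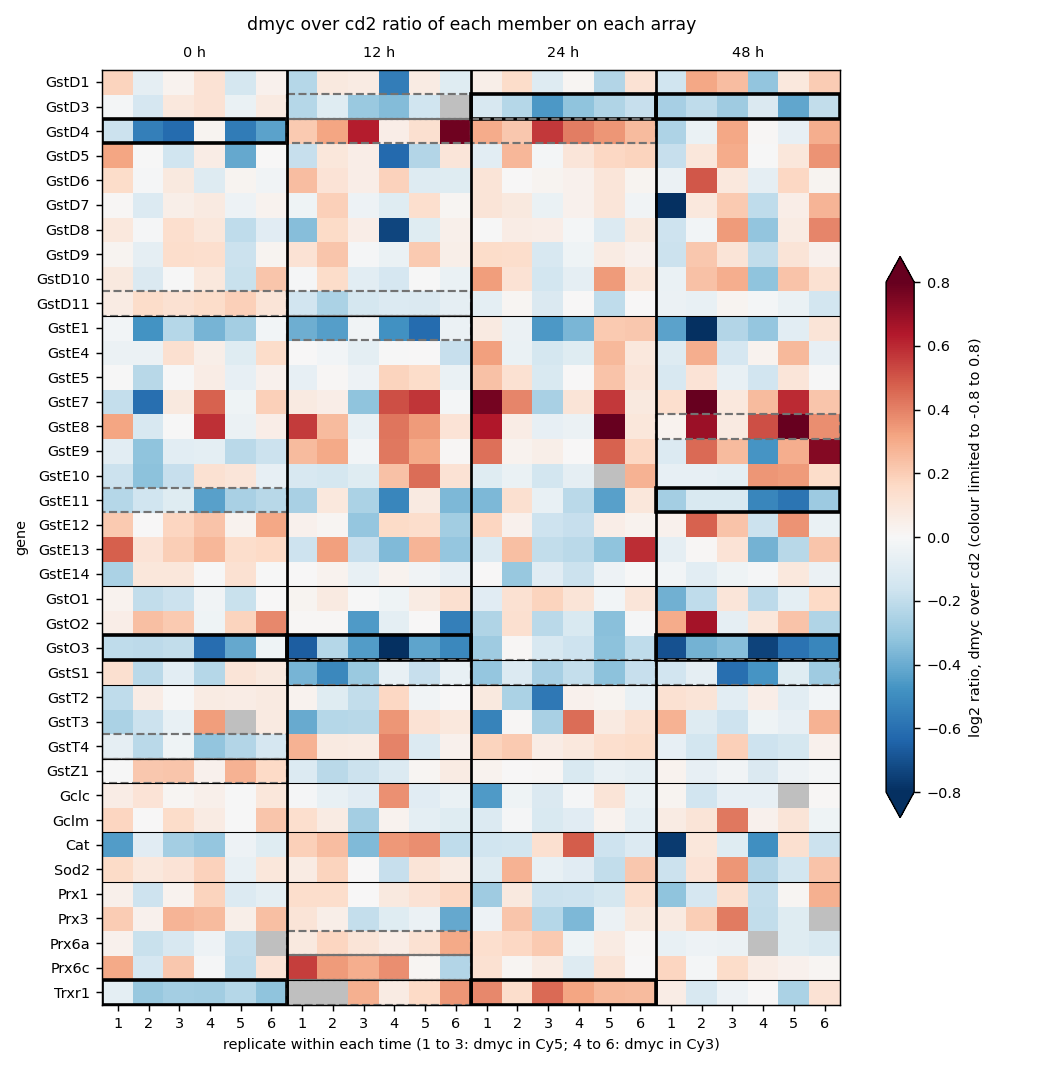
Log2 ratio of dmyc over cd2 for each of the 38 genes (vertical axis) on each of the 24 arrays (horizontal axis, replicates 1 to 6 within each time), with red for higher in dmyc, blue for lower and grey for no value. Solid boxes mark genes called at a time also with dye-swap pairs as a block, and dashed grey boxes mark genes called in the 24-array fit only. GstO3 is blue on 23 of 24 arrays, while GstD4 and Trxr1 turn from blue at 0 h to red at 12 and 24 h.

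Across the omega class, GstO3 gave the steadiest difference of the 38 genes and its neighbours did not follow it. Omega transferases are known for thiol transfer and for the reduction of dehydroascorbate. The GstO3 ratio was negative on 23 of 24 arrays, the exception being 0.01 on 1 array at 24 h. At 0 h its lowest, median and highest values were -0.61, -0.21 and -0.04. At 12 h they were -0.80, -0.48 and -0.23. All 12 of these values were below 0, and the ranges of both times overlapped. At 24 h the values were -0.33, -0.18 and 0.01, and at 48 h -0.74, -0.55 and -0.34. The 24 h range lay higher than the 48 h range without overlap.
The fitted GstO3 ratio was -0.28 ± 0.06 (SE, n = 6 arrays) at 0 h, with an adjusted p of 0.00731 by limma (0.0329 with the pair block). It was -0.51 ± 0.06 at 12 h (adjusted p = 0.000197, block 0.00205) and -0.54 ± 0.06 at 48 h (adjusted p = 1.68e-05, block 0.000267, partners averaged 0.0279). These correspond to 0.825, 0.701 and 0.685 times the control. At 24 h the fitted value of -0.18 ± 0.06 did not pass (adjusted p = 0.0773). The 12 and 48 h calls held in all 24 fits that left out 1 array and all 12 that left out a pair. The 0 h call was lost when the pair 1 and 4 was left out (-0.21, adjusted p = 0.0554) and when the pair 2 and 5 was (-0.26, adjusted p = 0.0756). The moderated F test over the 4 times passed for GstO3 (adjusted p = 0.012) but not with the pair block (0.058).

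GstO3, se, GstO2 and GstO1 lie next to each other in the genome. The gene se, an omega transferase known for its part in the red eye pigment, had ratios of 0.05, -0.03, -0.03 and -0.02 at 0, 12, 24 and 48 h and was not called. GstO1 stood between -0.10 and 0.06 and was not called at a time. It passed at 48 h without the pair 3 and 6 (-0.22, adjusted p = 0.00935) and at 0 h with array weights (-0.12, adjusted p = 0.0292). GstO2 had 0.17, -0.18, -0.13 and 0.16 in the same order, not called either, and passed at 0 h with array weights (0.21, adjusted p = 0.0416). Whether the array feature of one of these related genes also binds RNA of another was not tested, here or for the delta and epsilon genes.

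**Figure D2:**
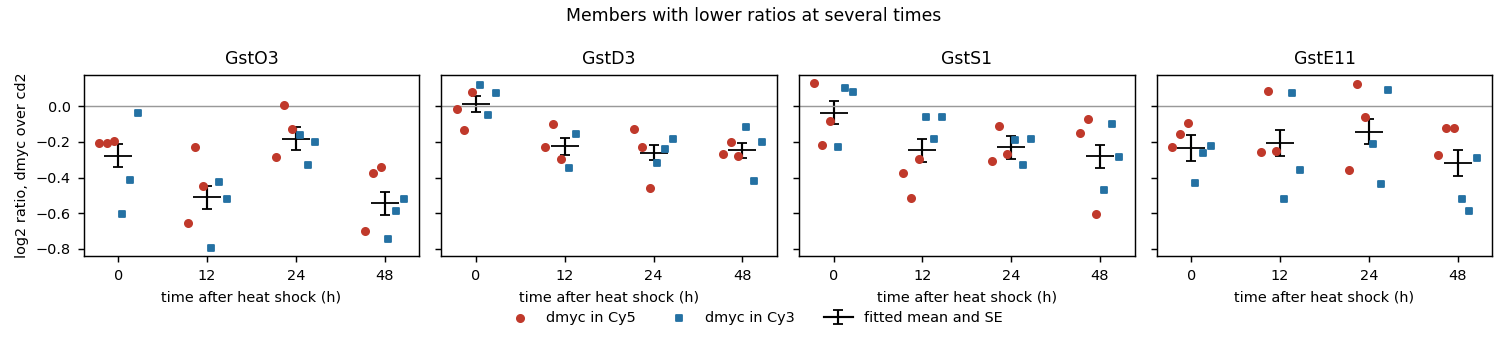
Log2 ratios of GstO3, GstD3, GstS1 and GstE11 on each array against time after heat shock, circles for dmyc in Cy5 and squares for dmyc in Cy3, with horizontal bars for the fitted mean and vertical bars for its SE (n = 6 arrays, 5 for GstD3 at 12 h). GstD3 and GstS1 lie around 0 at 0 h and below it at the 3 later times, whereas GstO3 and GstE11 have negative means throughout.

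Among the 10 delta transferases, the class best known for insecticide resistance and oxidative stress in flies, 3 were called and 7 were not. GstD4 was the gene with the largest changes of the 38. At 0 h its lowest, median and highest values were -0.62, -0.49 and 0.02, with 5 of 6 arrays below 0. At 12 h they were 0.06, 0.26 and 0.78, and at 24 h 0.22, 0.33 and 0.57. All 12 arrays of these 2 times were above 0 and above every 0 h array. At 48 h GstD4 lay on both sides of 0, with 3 of 6 arrays positive and a mean of 0.04. Its fitted ratio was -0.38 ± 0.09 (SE, n = 6) at 0 h (adjusted p = 0.00875, block 0.0268). At 12 h it was 0.35 ± 0.09 (adjusted p = 0.0211, block 0.0687) and at 24 h 0.35 ± 0.09 (adjusted p = 0.0214, block 0.0693).
The single-time values leaned on few arrays. Without the 12 h pair of replicates 3 and 6, which held the highest 2 values, the 12 h ratio of GstD4 was 0.18 (adjusted p = 0.361). The 0 h call was lost without replicate 3 (adjusted p = 0.0524), without the pair 2 and 5 (-0.30, adjusted p = 0.14) and without the pair 3 and 6 (-0.31, adjusted p = 0.167). The 24 h call was lost without replicate 1, 3, 4 or 5 (adjusted p between 0.0504 and 0.0776), and without the pairs 1 and 5 or 3 and 4 (0.104 and 0.154).

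GstD3, the next gene on the chromosome, went the other way. Its values at 0 h ran from -0.14 to 0.12, with 3 arrays on each side of 0. At 12 h the 5 measured arrays ran from -0.35 to -0.10. At 24 h the lowest, median and highest values were -0.46, -0.23 and -0.13, and at 48 h -0.42, -0.24 and -0.12. All 17 measured arrays of the later times were below 0. The fitted ratios were -0.22 ± 0.05 at 12 h (adjusted p = 0.00888, block 0.0509), -0.26 ± 0.04 at 24 h (adjusted p = 0.00272, block 0.022) and -0.25 ± 0.04 at 48 h (adjusted p = 0.00151, block 0.0187). The 24 and 48 h calls held in all fits that left out an array or a pair. The 12 h call was lost without the pair 1 and 4 (-0.18, adjusted p = 0.0983). The difference between both genes was not tested.

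GstD11, at the other end of the delta cluster, was slightly higher at 0 h and slightly lower at 12 h. Its 0 h values ran from 0.07 to 0.19 and its 12 h values from -0.26 to -0.07, so the groups did not overlap. The fitted ratios were 0.13 ± 0.03 (adjusted p = 0.00731, block 0.0713) and -0.14 ± 0.03 (adjusted p = 0.00742, block 0.0746). The 0 h call was lost without the pair 2 and 5 (0.11, adjusted p = 0.104) or 3 and 6 (0.14, adjusted p = 0.0676). GstD1, GstD5, GstD6, GstD7, GstD8, GstD9 and GstD10 had fitted ratios between -0.15 (GstD8 at 12 h) and 0.11 (GstD5, GstD6 and GstD10), none called. Their single arrays reached further: GstD7 had -0.80 on replicate 1 at 48 h and GstD8 had -0.74 on replicate 4 at 12 h. On that same 12 h array GstD1, a major detoxifying enzyme of flies, stood at -0.56 and GstD5 at -0.62. Across the 24 arrays, the deviations of GstD1 and GstD8 from their time means correlated at r = 0.827, and the 45 pairs of delta genes had a median r of 0.309, beside 0.071 over all 703 pairs of the 38 genes. These correlations describe arrays that share samples and dyes, and no test was made of them.

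**Figure D3:**
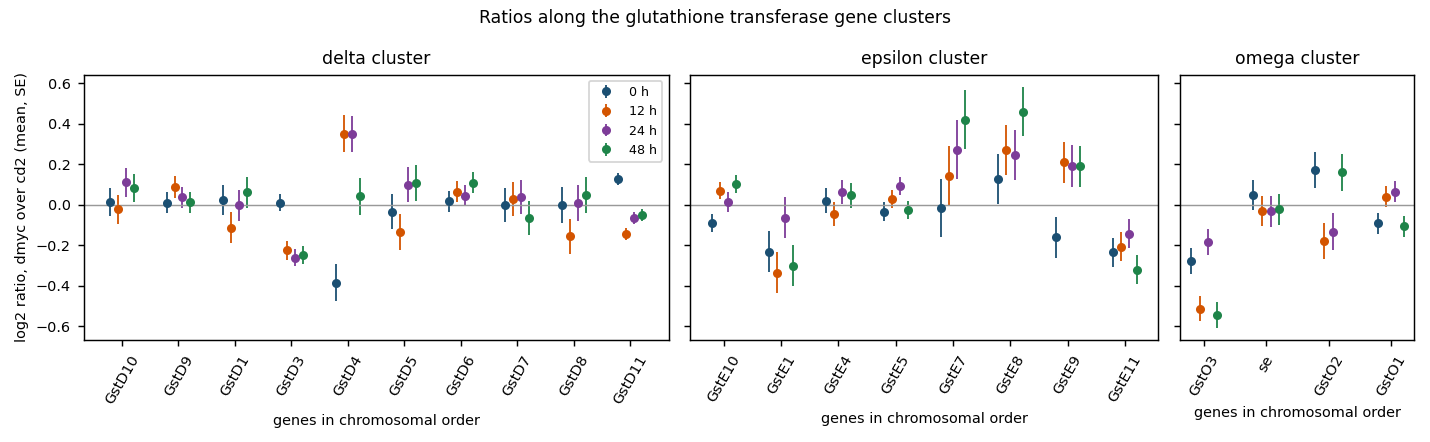
Fitted log2 ratios (vertical axis, mean with SE) at 0, 12, 24 and 48 h for the measured delta, epsilon and omega genes in their order along the chromosome, evenly spaced. Neighbours differ: GstD3 lies near -0.25 at 12 to 48 h beside GstD4 at 0.35 at 12 and 24 h, and GstO3 lies far below se, GstO2 and GstO1 at 12 and 48 h.

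Of the 11 epsilon transferases, which act on organic hydroperoxides and the aldehydes of lipid oxidation, 3 were called at a time and 8 at none. GstE11 had a negative mean at all 4 times. Its lowest, median and highest values were -0.43, -0.23 and -0.09 at 0 h and -0.59, -0.28 and -0.12 at 48 h, with every array of those times below 0. At 12 and 24 h, 4 of 6 arrays were negative and the means of -0.21 and -0.14 were not called. The fitted ratio was -0.32 ± 0.07 at 48 h (adjusted p = 0.0103, block 0.0372). That call was lost without replicate 5 (-0.28, adjusted p = 0.051) and without the pairs 1 and 4 (-0.28, adjusted p = 0.091) or 2 and 5 (-0.30, adjusted p = 0.0838). The 0 h ratio of -0.23 ± 0.07 (adjusted p = 0.0385, block 0.0956) was lost on leaving out any 1 of the 6 arrays at 0 h (adjusted p up to 0.0963). Conversely, GstE11 was called at 12 h without replicate 5 (-0.28, adjusted p = 0.022).
GstE1 was lower in dmyc at 12 h, where its values ran from -0.62 to -0.03. The fitted ratio was -0.33 ± 0.10 (adjusted p = 0.0448, block 0.166), and the call held in 14 of 24 fits without 1 array (adjusted p up to 0.134). At 0 and 48 h GstE1 had -0.23 and -0.30 without a call, and it passed at 48 h without replicate 6 (-0.37, adjusted p = 0.0435).

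GstE8 and GstE7 had the highest ratios of the 38 genes at 48 h, positive on all 6 arrays but of very unequal size. GstE8 at 48 h had 0.03, 0.68, 0.07, 0.52, 1.10 and 0.37 on replicates 1 to 6. GstE7 had 0.13, 1.24, 0.08, 0.25, 0.59 and 0.22 on the same arrays. For both genes replicates 2 and 5, a dye-swap pair, carried the highest 2 values. The fitted ratio of GstE8 was 0.46 ± 0.12 (n = 6, adjusted p = 0.0265, block 0.0684), and without that pair it was 0.25 (adjusted p = 0.394). It was also not called without replicate 2 (0.40, adjusted p = 0.11), 4 (0.47, adjusted p = 0.0568) or 5 (0.34, adjusted p = 0.135). GstE7 had 0.42 ± 0.14 and was not called (adjusted p = 0.0865).
Most arrays with high GstE8 also had high ratios of fat body genes. The fat body, the larval counterpart of liver and adipose tissue, lies close to the discs. Of 7 of its marker genes 3 gave a ratio (Fbp1, Fbp2 and apolpp), and their mean ran from -1.22 to 1.16 at 0 h, -0.47 to 1.16 at 12 h, -0.74 to 1.68 at 24 h and 0.49 to 2.17 at 48 h. At 48 h it was 2.17 and 1.91 on replicates 2 and 5. Fbp2 alone was called at 48 h (2.22 ± 0.64, adjusted p = 0.0422, block 0.075), with apolpp at 1.31 (adjusted p = 0.0509) and Fbp1 at 0.20 (adjusted p = 0.413). The deviations of GstE8 from its time means correlated with those of the fat body mean at r = 0.831 over 24 arrays, those of GstE4 at 0.755, GstE7 at 0.716, GstE5 at 0.709 and GstE12 at 0.668. These were the highest r of the 38 genes, followed by GstD10 at 0.553, Prx6c at 0.504 and GstE9 at 0.478. The lowest were GstD11 at -0.45 and GstE11 at -0.432, and GstO3 had r = -0.324 with the same mean. The part of fat body RNA in these ratios was not tested.
GstE4, GstE5, GstE7, GstE8 and GstE12 also moved together from array to array, with r between 0.578 and 0.866 over their 10 pairs (median 0.738). These 5 were picked after their values were seen, so the correlation is a description. GstE4, GstE5, GstE7 and GstE8 lie in the same cluster, and GstE12 lies far from it.

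**Figure D4:**
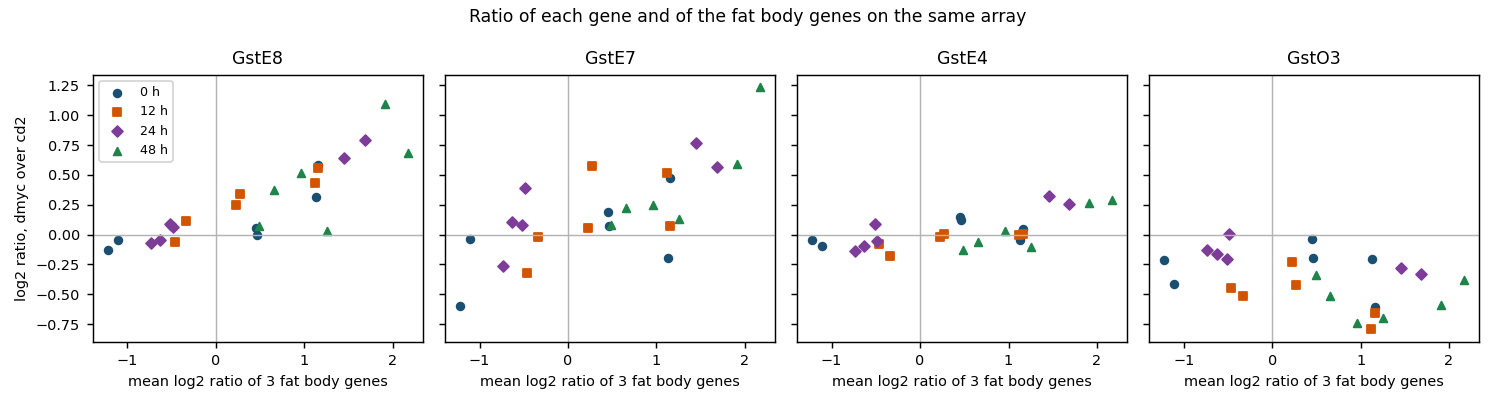
Log2 ratio of GstE8, GstE7, GstE4 and GstO3 on each array (vertical axis) against the mean log2 ratio of Fbp1, Fbp2 and apolpp on that array (horizontal axis), with symbols for the 4 times. GstE8 and GstE4 tend to be high on arrays with a high fat body mean, with exceptions such as 48 h replicate 1 (GstE8 at 0.03), whereas GstO3 is below or at 0 across the whole range.

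The remaining epsilon genes were not called at any time. GstE9 had -0.16 at 0 h and 0.21, 0.19 and 0.19 at 12, 24 and 48 h. Without the 48 h replicate 4, at -0.48, its 48 h ratio was 0.33 (adjusted p = 0.0299). GstE13 had 0.23 at 0 h, with all 6 arrays positive (0.11 to 0.48), and means of -0.07 or closer to 0 later. GstE12 had 0.16 and 0.15 at 0 and 48 h. GstE4, GstE5, GstE10 and GstE14 stayed between -0.10 and 0.11. GstE10 and GstT3 were the 2 genes with a called dye effect (difference between dye orientations -0.31, adjusted p = 0.000483, and -0.34, adjusted p = 0.00984), as had 11% of all features.

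GstS1, the sole sigma transferase, is known for conjugating 4-hydroxynonenal, a toxic product of lipid oxidation. Like GstD3 it lay around 0 at 0 h, from -0.23 to 0.13, and below 0 on all 18 later arrays. Its lowest, median and highest values were -0.51, -0.24 and -0.06 at 12 h, -0.33, -0.23 and -0.11 at 24 h and -0.60, -0.22 and -0.07 at 48 h. The fitted ratios were -0.25 ± 0.07 (adjusted p = 0.0234, block 0.161), -0.23 ± 0.07 (adjusted p = 0.0325, block 0.19) and -0.28 ± 0.07 (adjusted p = 0.012, block 0.123). None held with the pair block. The calls were lost without some single arrays: replicates 1, 2 or 3 at 12 h (adjusted p up to 0.0903), any but replicate 2 at 24 h (up to 0.116), and replicates 3 or 4 at 48 h (up to 0.057). The differences of GstS1 from 0 h were not called (-0.21, -0.19 and -0.24, adjusted p 0.101, 0.141 and 0.101).

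In the theta class, GstT4 alone was called. Its 0 h values ran from -0.31 to -0.04 and its 24 h values from 0.06 to 0.21, so these groups did not overlap. The 0 h ratio of -0.17 ± 0.05 (adjusted p = 0.0356, block 0.107) was lost without any 1 of replicates 2 to 6 (adjusted p up to 0.115). At 12, 24 and 48 h GstT4 had 0.12, 0.14 and -0.05, not called. GstT2 and GstT3 stayed between -0.12 and 0.03. GstZ1 belongs to the zeta class, which in mammals isomerises maleylacetoacetate in tyrosine breakdown. It had values from -0.01 to 0.28 at 0 h, with 5 of 6 arrays above 0, and a fitted ratio of 0.15 ± 0.04 (adjusted p = 0.0119, block 0.0955). That call was lost without replicate 3 (adjusted p = 0.0605), replicate 5 (0.0588), or the pairs 3 and 6 (0.169) or 2 and 5 (0.203). Later means of GstZ1 were -0.09, -0.04 and -0.04.

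The genes of glutathione synthesis, Gclc and Gclm, and the genes Sod2 and Cat were not called in the fit of 24 arrays. Gclc, the catalytic subunit that makes gamma-glutamylcysteine, had 0.05, 0.01, -0.09 and -0.04 at 0, 12, 24 and 48 h. Its regulatory partner Gclm had 0.10, -0.04, -0.06 and 0.12. Cat, the peroxisomal catalase, had -0.21 at 0 h with all 6 arrays negative (-0.45 to -0.04, adjusted p = 0.206), then 0.10, 0.01 and -0.22, with single arrays from -0.76 to 0.49. Sod2, the mitochondrial superoxide dismutase, had 0.09, 0.04, 0.01 and 0.02. Its 2 features had means between -0.02 and 0.13 at each time. The SE of these ratios ran from 0.05 for Gclc and Gclm to 0.11 for Cat.

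Both peroxiredoxins of the Prx6 type were called at 12 h, and thioredoxin reductase at 0, 12 and 24 h. Prx6a and Prx6c are counterparts of the mammalian peroxiredoxin with 1 active cysteine. The 12 h values of Prx6a ran from 0.06 to 0.30, and its fitted ratio was 0.14 ± 0.04 (n = 6, adjusted p = 0.0195, block 0.127). The call was lost without replicate 6 (0.10, adjusted p = 0.101) and without the pairs 2 and 5 (adjusted p = 0.0754) or 3 and 6 (0.139). Prx6c had 0.22 ± 0.06 at 12 h (adjusted p = 0.0359, block 0.136) with values from -0.23 to 0.55, and 0.10 without the pair 1 and 4 (adjusted p = 0.414). Without single replicates 1 to 4 the adjusted p of Prx6c was up to 0.144. The pair 1 and 4 also had the highest fat body means at 12 h (1.16 and 1.12), and over 24 arrays the deviations of Prx6c and of that mean correlated at r = 0.504. The part of fat body RNA in the Prx6c ratio was not tested. Prx1, a cytosolic member, stood between -0.09 and 0.11, and Prx3, a mitochondrial member, between -0.10 and 0.17, neither called at a time.
Trxr1 went from low to high like GstD4. At 0 h its lowest, median and highest values were -0.32, -0.27 and -0.08. At 24 h they were 0.14, 0.29 and 0.46. All 6 arrays of each of these times were on the same side of 0. At 12 h only 4 arrays had a value for Trxr1 (0.07 to 0.36), since replicates 1 and 2 were missing. At 48 h its values ran from -0.25 to 0.12, with a mean of -0.04. The fitted ratios were -0.25 ± 0.05 at 0 h (n = 6, adjusted p = 0.00238, block 0.0182), 0.23 ± 0.06 at 12 h (n = 4, adjusted p = 0.0228, block 0.105) and 0.30 ± 0.05 at 24 h (n = 6, adjusted p = 0.00216, block 0.0188). The 24 h call held in every fit that left out an array or a pair, and the 0 h call in all but the one without the pair 3 and 6 (-0.22, adjusted p = 0.0625). At 12 h the ratio was 0.13 without the pair 3 and 6 (adjusted p = 0.46), and the call was lost without replicate 3 or 6 alone (0.111 and 0.13).

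**Figure D5:**
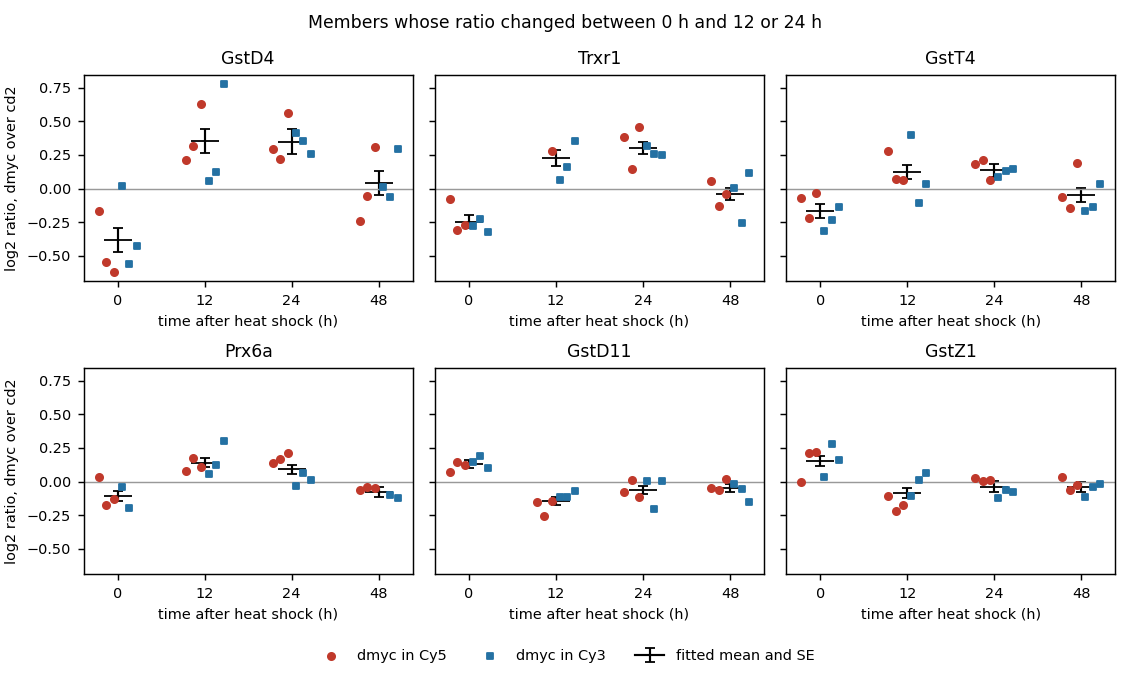
Log2 ratios of GstD4, Trxr1, GstT4, Prx6a, GstD11 and GstZ1 on each array against time after heat shock, circles for dmyc in Cy5 and squares for dmyc in Cy3, with bars for the fitted mean and SE (n = 6 arrays, 4 for Trxr1 at 12 h, 5 for Prx6a at 0 and 48 h). GstD4, Trxr1, GstT4 and Prx6a have lower means at 0 h than at 12 and 24 h, and GstD11 and GstZ1 higher ones.

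Differences from 0 h put these courses to a test of their own. The 3 comparisons share the 0 h arrays and take their direction to match that of the later times, which was not tested. Between 0 and 12 h, 8 of the 38 genes changed, 21.1% against 23.8% of all features, with 4 up and 4 down (15.1% and 8.75% of all features). Between 0 and 24 h, 7 changed, 18.4% against 20.3%, with 4 up and 3 down (12.2% and 8.08%). Between 0 and 48 h 3 changed, 7.89% against 6.39%, with 0 up and 3 down (3.84% and 2.55%). There 10 of the 38 genes had an unadjusted p under 0.05, beside 2828 of the 10661 features. These shares are close to the background, so change over time was about as frequent here as over the array. With the pair block 6, 5 and 0 were called, against 12.4%, 8.63% and 0.131% of all features. With partners averaged, GstD11, Trxr1 and Prx6a were called between 0 and 12 h (adjusted p 0.0351, 0.0387 and 0.0469, with 3.22% of all features called). No gene of the 38 was called in the other differences. There 8 of the 38 had an unadjusted p under 0.05 at 24 h and 8 at 48 h, beside 2332 and 1464 of the 10661 features. The F test for any change over time called 8 of the 38 (21.1% against 19.7% of all features), and 5 with the pair block (6.92% of all features).
GstD4 rose most, by 0.74 ± 0.13 on the log2 scale at 12 h (1.67 times, adjusted p = 0.000509, block 0.00233) and by 0.73 ± 0.13 at 24 h (1.66 times, adjusted p = 0.000862, block 0.00412). Trxr1 rose by 0.47 ± 0.08 at 12 h (adjusted p = 0.000286, block 0.00288) and by 0.55 ± 0.07 at 24 h (adjusted p = 0.000181, block 0.00194). GstT4 rose by 0.29 ± 0.07 at 12 h (adjusted p = 0.00628, block 0.0249) and by 0.30 ± 0.07 at 24 h (adjusted p = 0.00626, block 0.0257). For these 3 genes all calls at 12 and 24 h held without any single array or pair, although the 12 h rise of GstT4 was 0.18 without the 12 h pair 1 and 4 (adjusted p = 0.0419). Prx6a rose by 0.25 ± 0.05 at 12 h (adjusted p = 0.00236, block 0.021) and by 0.20 ± 0.05 at 24 h (adjusted p = 0.0126, block 0.0721).
GstD11 fell by 0.27 ± 0.04 at 12 h (adjusted p = 0.000203, block 0.00442) and by 0.19 ± 0.04 at 24 h (adjusted p = 0.00363, block 0.0396). GstZ1 fell by 0.24 ± 0.05 at 12 h (adjusted p = 0.00283, block 0.0338) and by 0.19 ± 0.05 at 24 h (adjusted p = 0.0171, block 0.109). GstD3 fell by 0.24 ± 0.06 at 12 h (adjusted p = 0.012, block 0.0526) and by 0.27 ± 0.06 at 24 h (adjusted p = 0.00473, block 0.0329). Prx3 fell by 0.27 ± 0.10 at 12 h (adjusted p = 0.0466, block 0.107), and without the 12 h pair 3 and 6 the difference was -0.17 (adjusted p = 0.289). At 48 h GstD3, GstZ1 and GstD11 differed from 0 h by -0.26, -0.19 and -0.18 (adjusted p 0.02, 0.0379 and 0.0182), none with the pair block (0.123, 0.2 and 0.14).
Several of these differences needed all arrays of a pair. GstD3 at 12 h lost its call without the 0 h pair 3 and 6 (-0.20, adjusted p = 0.0821) or the 12 h pair 1 and 4 (-0.19, adjusted p = 0.0789), and at 48 h without 0 h replicate 3 or 6 (0.056 and 0.0545). GstZ1 at 24 h lost it without the 0 h pairs 2 and 5 (-0.14, adjusted p = 0.125) or 3 and 6 (-0.17, adjusted p = 0.0994) or the 24 h pair 3 and 4 (-0.18, adjusted p = 0.0604), and at 48 h without most single arrays of the times compared (adjusted p up to 0.0952). Prx6a at 24 h lost it without the 0 h pair 2 and 5 (0.14, adjusted p = 0.132) or 3 and 6 (0.19, adjusted p = 0.0533), and GstD11 at 48 h without the same pairs (0.0984 and 0.0921). Prx3 at 12 h kept it in 10 of 24 fits without 1 array (adjusted p up to 0.124). Further differences did not pass but lay near the threshold and passed in some other settings. GstO2 between 0 and 12 h (-0.35, adjusted p = 0.05) and GstD4 between 0 and 48 h (0.43, adjusted p = 0.0504) were closest to the threshold, and each passed in several fits that left out an array or pair, with adjusted p down to 0.0291 and 0.00594, and with array weights (0.0163 and 0.011). GstO2 also passed with quantile normalization (-0.44, adjusted p = 0.018). GstE9 from 0 to 12 h (0.37, adjusted p = 0.0659) passed without 48 h replicate 4 (adjusted p = 0.0206) and with array weights (0.41, adjusted p = 0.00975). GstO3 from 0 to 12 h (-0.23, adjusted p = 0.062) passed without 0 h replicate 4 (-0.29, adjusted p = 0.0208) and with quantile normalization (-0.32, adjusted p = 0.0129).
Markers of the discs and of other tissues changed over the same interval. The tracheal gene verm, a chitin deacetylase, stood at -0.50 at 0 h and 0.50 at 12 h. Of 5 measured tracheal markers 3 rose between 0 and 12 h (60%, against 23.8% of all features), 2 of them with the block. The changes of the 5 ran from -0.13 to 1.01, so not all rose. Their mean ran from -0.41 to -0.05 on the 0 h arrays and from 0.02 to 0.33 on the 12 h arrays, without overlap. It depended on dye: replicates 1 to 3 had -0.41 to -0.31 and 0.02 to 0.12, replicates 4 to 6 -0.10 to -0.05 and 0.21 to 0.33. Of the 11 wing disc markers 3 rose and 1 fell between 0 and 12 h (36.4%, against 23.8% of all features), all 4 also with the block. The wing pouch gene nub rose by 0.54 ± 0.06 (adjusted p = 2.13e-05, block 0.000246), and vg, which also acts in the pouch, fell by 0.54 ± 0.11 (adjusted p = 0.00186, block 0.0124). The mean of the 4 measured hemocyte markers, of 6, moved opposite to the tracheal mean, from 0.03 to 0.13 on the 0 h arrays to -0.14 to -0.02 on the 12 h arrays, again without overlap. Of these 4, none was called at a time, and 2 fell between 0 and 12 h, neither with the block. Of 2 measured myoblast markers, of 5, none was called at a time and 1 fell between 0 and 12 h, not with the block. The part of tissue makeup in the changes of GstD4, Trxr1, GstT4 and the other genes was not tested.

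Further genes of the same pathways were taken from lists. Their counts stand beside 12.1%, 8.29%, 8.14% and 6.29% of all features called at 0, 12, 24 and 48 h (4.83%, 1.34%, 1.61% and 1.91% with the block), and with so few genes a share is coarse. Of 4 measured regulators, the cnc partner maf-S was called, at 0.27 ± 0.06 at 0 h (adjusted p = 0.00388, block 0.0234) and -0.25 ± 0.06 at 24 h (adjusted p = 0.01, block 0.0611). Its change of -0.42 from 0 to 12 h passed with and without the block (adjusted p = 0.000884, block 0.00652). The other regulators cnc, Keap1 and foxo stayed between -0.07 and 0.08 without a call.
Among 7 measured genes of the thioredoxin system and of repair, 5 were called at 0 h, 71.4% against 12.1% of all features, with 1 higher and 4 lower (3.84% and 8.24% of all features). With the pair block 1 was called there. At each later time 1 of the 7 was called, 14.3%. The thioredoxin-like gene Txl had -0.30 at 0 h, 0.32 at 12 h and 0.32 at 24 h, and rose by 0.62 ± 0.13 between 0 and 12 h (adjusted p = 0.00157, block 0.00652). Trxr2, the second thioredoxin reductase, had -0.26 ± 0.08 at 0 h (adjusted p = 0.0303, block 0.101) and rose by 0.46 ± 0.11 from 0 to 12 h (adjusted p = 0.00454, block 0.0209). SelR, a methionine sulfoxide reductase, was higher at 0 h (0.22 ± 0.05, adjusted p = 0.00731, block 0.0436). The extracellular superoxide dismutase Sod3 was lower at 0 h (-0.28 ± 0.08, adjusted p = 0.0199, block 0.0742) and at 48 h (-0.36 ± 0.08, adjusted p = 0.00731, block 0.0389).
Of 6 genes that supply NADPH, the electron source of these reductases, 2, 1, 0 and 1 were called at 0, 12, 24 and 48 h, which is 33.3%, 16.7%, 0% and 16.7% against 12.1%, 8.29%, 8.14% and 6.29% of all features. Idh and Pgd were lower at 0 h (-0.29 ± 0.07, adjusted p = 0.00731, block 0.0261, and -0.20 ± 0.05, adjusted p = 0.0102, block 0.0502). Pgd passed narrowly at 12 h in the other direction (0.16 ± 0.05, adjusted p = 0.0499, block 0.17). Both rose by 0.36 between 0 and 12 h (adjusted p = 0.00885 for Idh and 0.00108 for Pgd, block 0.0288 and 0.00762). Taldo, a transaldolase gene of the pentose phosphate pathway, was lower at 48 h (-0.23 ± 0.06, adjusted p = 0.0269, block 0.114). A list drawn up for glutathione synthesis and use had 7 measured genes: Ggt-1, Mgstl, gfzf, Grx1, Grx1t, CIAPIN1 and se, the last already given above. The use of glutathione by each was not checked. Only Ggt-1, a gamma-glutamyl transpeptidase gene, was called at a time (-0.13 ± 0.04 at 12 h, adjusted p = 0.0407, block 0.157).
Of 3 metal-binding genes, the ferritin heavy chain gene Fer1HCH was lower at every time, with -0.18, -0.20, -0.34 and -0.33 at 0, 12, 24 and 48 h (adjusted p 0.0284, 0.0281, 0.00202 and 0.000608), and with the pair block at 24 and 48 h (0.0125 and 0.00296). Ferritin stores iron in a form that does not feed the making of radicals. The ferritin light chain gene Fer2LCH was called at 24 h alone (-0.17 ± 0.04, adjusted p = 0.0181, block 0.0676).

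The other large detoxification families gave a measure of comparison. Of 62 cytochrome P450 genes, 3.23%, 6.45%, 4.84% and 11.3% were called at 0, 12, 24 and 48 h, against 12.1%, 8.29%, 8.14% and 6.29% of all features, so the share was below that of all features at 0, 12 and 24 h and above it at 48 h. At the 4 times 2, 2, 1 and 4 of the 62 were called higher and 0, 2, 2 and 3 lower. With the pair block 0, 1, 1 and 2 of the 62 were called. Of 21 UDP-glycosyltransferase genes, 14.3%, 14.3%, 14.3% and 9.52% were called, and with the block 0, 0, 1 and 0 genes. Here 1, 1, 2 and 1 were called higher and 2, 2, 1 and 1 lower. The difference between these families and the 38 genes was not tested. A list of 6 measured detoxification genes overlaps these families, with 3 P450 genes, 2 UDP-glycosyltransferase genes and Jheh2. The highest ratio of this list at 48 h, 1.09, was not called. The called genes numbered 1, 2, 1 and 1 at 0, 12, 24 and 48 h (16.7%, 33.3%, 16.7% and 16.7%), all lower in dmyc. Among them Ugt36D1 had -0.47, -0.59 and -0.46 at 12, 24 and 48 h (adjusted p 0.0165, 0.00427 and 0.018, block 0.0546, 0.0218 and 0.0525), the epoxide hydrolase gene Jheh2 had -0.49 ± 0.11 at 0 h (adjusted p = 0.00533, block 0.0215), and the P450 gene Cyp6a2 had -0.34 ± 0.10 at 12 h (adjusted p = 0.0407, block 0.106). Of 2 measured genes of enzymes that make or use oxidants, Irc was not called. Duox, which makes hydrogen peroxide, was called at no single time but fell between 0 and 24 h (-0.36 ± 0.11, adjusted p = 0.0221), without passing with the block (0.0816).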

How the data were processed

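Per the labels' protocols, total wing disc RNA was amplified linearly in 2 rounds and labelled with Cy5 or Cy3. The deposited values look like log2 ratios between both RNAs of an array. They run from -7.19 to 5.68, with array medians between -0.01 and 0.008. No source used here gives the log base (taken as 2), background correction, normalization or genome build. The values hold no signal over background, so the depth behind a ratio is unknown. Precision is limited by the number of arrays.

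Of 12359 features, 169 at control positions (inferred from positions in print blocks of 324 at which no feature named a gene) were left out. The probe-to-gene table gave 1 gene for 10289 features, several for 56 and none for 1845, and 9896 of the first matched the RefSeq gene table of Release 6, which was used only for names and gene order. Arrays were centred on their medians, features of a gene averaged, and 4 of 6 values required at each time. This left 8815 named genes and 1846 features that named no gene or several (1.58% of values missing). limma 3.58.1 in R 4.3.3 (lmFit, eBayes) fitted 1 coefficient per time and 1 for dye over all 24 arrays, with Benjamini-Hochberg adjustment over all features and a threshold of 0.05. Differences from 0 h and a moderated F test came from the same fit. The fit was run on simulated data with noise independent between arrays. Such data leave out the resemblance of dye-swap partners, so the run could not test its effect on the p-values.

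Dye-swap partners were taken as the arrays of one time and opposite dye that correlated best (the pairs 1-4, 2-5 and 3-6, and at 24 h the pairs 1-5, 2-6 and 3-4), and served as a random block (duplicateCorrelation, statmod 1.5.0) or were averaged. Other alternatives were no centring, quantile normalization, control positions kept, complete genes only, no dye coefficient, any number of values allowed, a replicate block, array weights, the compared times alone, and leaving out each array or pair. Every called gene of the 38 is named with its statistics, and of other lists up to 4 called genes. The 38 genes and the lists were chosen with earlier results of these data known. The gene dm, the Myc gene itself, is not analysed here, nor are the genes of the naming rule that have no row in the probe-to-gene table.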

Additional observations from a re-analysis of the deposited data

Results flagged for a closer look

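Of 152 groups of 4 to 6 arrays (38 genes at 4 times), 6 held an array far from the others by Dixon's test, where chance gives about 1 in 20 groups. Gclc stood at 0.365 on replicate 4 at 12 h, with the others between -0.092 and -0.011. Gclm stood at 0.421 on replicate 3 at 48 h (others -0.032 to 0.106), and GstE10 at 0.279 on replicate 6 at 24 h (others -0.15 to -0.053). On replicate 1 at 0 h, GstE14 stood at -0.251 (others -0.002 to 0.122), GstT2 at -0.203 (others -0.004 to 0.071) and Trxr1 at -0.076 (others -0.322 to -0.23). The Trxr1 call at 0 h held without that array.

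The ratio of 8 genes differed between 0 h and a later time by limma's test of the difference, in 18 gene and time combinations. From 0 to 12 h the differences were 0.74 for GstD4, 0.47 for Trxr1, 0.29 for GstT4 and 0.25 for Prx6a, against -0.27 for GstD11, -0.24 for GstZ1, -0.24 for GstD3 and -0.27 for Prx3. From 0 to 24 h they were 0.73 for GstD4, 0.55 for Trxr1, 0.30 for GstT4 and 0.20 for Prx6a, against -0.19 for GstD11, -0.19 for GstZ1 and -0.27 for GstD3. From 0 to 48 h they were -0.18 for GstD11, -0.26 for GstD3 and -0.19 for GstZ1. With dye-swap pairs as a block, 6, 5 and 0 genes were called at 12, 24 and 48 h. Of all features 12.4%, 8.63% and 0.131% were called there.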

How the results depend on the processing

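No result reversed under any alternative run. There were 43 called gene results, each a gene at a time or in a difference from 0 h, with the F test over time not among them. All 43 held with array weights, without centring, with control positions kept and without a minimum number of values. A replicate block kept 42, quantile normalization 40, a fit without a dye coefficient 39 and the compared times alone 24. Dye-swap pairs as a block kept 20 and partners averaged 4. With complete genes only, 28 of the 28 that could be fitted held. By construction averaging counts each pair once, the pair block gives partner arrays less weight than separate ones, and the compared times alone leave fewer arrays to estimate the spread. For other losses the cause was not tested.

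Counts of called genes at 0, 12, 24 and 48 h were 3, 1, 2 and 3 with the pair block. Partners averaged gave 0, 0, 0 and 1. Over all 10661 features these fits called 515, 143, 172 and 204, and 0, 0, 0 and 58. The compared times alone gave 2 at 0 h, 0 at 12 h and 2 at 48 h, beside 494, 53 and 132 of all features. Array weights gave 12 at 0 h, beside 3143 of all features. Complete genes gave 2 at 24 h, beside 795 of 8352. For differences from 0 h at 12, 24 and 48 h, partners averaged gave 3, 0 and 0. Over all features that fit gave 343, 0 and 0. At an unadjusted p under 0.05 it gave 9, 8 and 8, beside 2662, 2332 and 1464 of all features. Array weights gave 15, 12 and 9, beside 3747, 3307 and 1854. Complete genes gave 5 and 4 at 12 and 24 h, beside 2242 and 1916 of 8352. The pair block gave 0 at 48 h, beside 14, and 8 at an unadjusted p under 0.05, beside 1830. For any change over time the pair block gave 5, beside 738 of all features, and complete genes 5, beside 1835 of 8352. Partners averaged gave 0, beside 0 of all features, and 8 unadjusted, beside 1834. The replicate block gave 5 from 0 to 48 h, beside 594 of all features. Equal replicate numbers did not pair the arrays, since correlations of deviations ran from -0.482 to 0.499. Leaving out an array or pair gave 1 to 8 calls at 0 h, 5 to 9 at 12 h, 2 to 5 at 24 h and 3 to 6 at 48 h. Over all features these fits gave 206 to 1804, 294 to 1072, 139 to 1063 and 235 to 818. In the differences from 0 h they gave 6 to 11, 5 to 10 and 0 to 7, and over time 6 to 10. All features gave 1254 to 3025, 741 to 2677 and 41 to 1698, and over time 699 to 2569.

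Over all features the pair block lowered the calls at 0 h from 1287 to 515, and quantile normalization moved their split from 409 higher and 878 lower to 613 and 654. At 12 h that split went from 567 and 317 to 479 and 388, and in the difference from 0 to 12 h from 1606 and 933 to 1229 and 1226. No signal over background was used, so a low ratio from a dim feature cannot be told from a small difference.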
